A study of Bos taurus with 96 samples.

Results

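The complement components and regulators described here are C1QA, C1QB, C1QC, C2, C3, CFB, CFI, C7 and SERPING1. Their probes were found through the bovine RefSeq accession that the array design gives each probe, or else through the probe tables of the study. Of the 9 genes, 8 had a probe among the 34227 tested, which stand for 10680 named genes in all, and no probe was matched to C1QC, which was not analysed here. Each gene was represented by its tested probe with the highest mean level, a choice that used no comparison between tissues.

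Total RNA from cattle tissue was hybridised to a 1 colour Agilent bovine array, with 1 array for each of 96 samples. The fat samples were dissected from 26 month old Angus, Hereford and Wagyu x Angus steers after 259 days in a feedlot, all reared on pasture after weaning. The 5 depots, with 12 arrays each and 4 per breed, were omental (Omen), kidney (Kid), intermuscular (Inter), rump subcutaneous (SC) and intramuscular fat (IMF). Longissimus dorsi muscle with its fat in place (LD) had 36 arrays, which in each breed were 8 from steers on pasture and 4 from steers given a supplement after weaning. The labels state 259 feedlot days for LD too, whereas the methods place part of the LD samples in an earlier slaughter that the labels do not mark. The arrays of 1 depot came from separate steers, but the depots share steers that the labels do not identify.

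Complement is a cascade of plasma proteins that marks microbes, immune complexes and dying cells. The classical route starts with C1q, made of the C1QA, C1QB and C1QC chains, and runs through the C1r and C1s proteases to C2 and C4. The alternative route uses factor B (CFB) and amplifies the cleavage of C3, at which the routes meet, and C7 belongs to the late components that form the membrane attack complex. Factor I (CFI) cleaves activated C3 and C4, and SERPING1 encodes the C1 inhibitor. Much circulating complement is made by the liver, while macrophages are the main source of C1q and adipose tissue makes several of the other proteins.

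A level below is log2 of the background-subtracted signal of a probe minus the 75th percentile of its array, so 0 is the level of that percentile, and a difference of 1 is a 2-fold change. Levels of different probes were not compared. A difference is given on that log2 scale with its standard error (SE), and p-values come from limma, adjusted by Benjamini-Hochberg over all 34227 probes with a threshold of 0.05. In bulk tissue, fewer cells of a type and less RNA per cell cannot be told apart. The 4 comparisons with SC share the 12 SC arrays.

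Some arrays stood apart within their depot in the markers of other cell types. The mean level of the mesothelium markers with a probe (MSLN, UPK3B, KRT18 and KRT8, 4 of 6 listed) was 0.14 to 0.45 on 5 Omen arrays and -3.46 to -2.24 on the other 7, against -3.28 to -2.61 in SC. MSLN (0.088 to 0.72 against -6.09 to -3.79), UPK3B (0.89 to 1.68 against -1.99 to -1.22) and KRT18 (0.40 to 1.60 against -4.96 to -2.80) each set the 5 arrays apart, whereas KRT8 overlapped (-1.24 to -0.63 against -1.75 to -0.80). KRT18 was also high in part of IMF, where it ran from -3.45 to 3.78. These 5 arrays comprised 1 Angus, 2 Hereford and 2 Wagyu x Angus and lay on 4 slides, all of which also held other Omen arrays. The skeletal myofibre list (11 of 12 genes with a probe) was at 2.17 and 5.79 on 2 Wagyu x Angus Inter arrays, against -4.11 to -0.74 on the other 10. It was at 6.13 to 7.89 in IMF, -4.55 to -3.19 in SC and 8.28 to 9.05 in LD, which places every IMF array near muscle for these genes. The macrophage list (8 of 10 genes with a probe) was at 2.43 to 4.04 on 4 Kid arrays, above the highest SC array at 2.36, and at 0.33 to 1.72 on the other 8 Kid arrays. Adipocyte markers were high in the 4 fat depots other than IMF, with medians of 4.63 to 4.77, and had a median of 3.41 in IMF and -1.47 in LD. No listed marker gene was below background on every array of a tissue. The arrays were scanned on 3 days, with all 12 IMF arrays on 1 day, all 12 Inter arrays on another and 11 of the 12 SC arrays on the remaining one. The median share of probes above background was lowest in LD (90.5%) and SC (91.1%) and highest in Kid (96.4%).

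C1QA and C1QB, the chains of the recognition protein C1q, were lower in IMF than in every other fat depot. C1QA ran from 4.33 to 7.08 in SC (lowest to highest of 12 arrays, median 5.03) and from 2.24 to 4.78 in IMF (median 3.57). The ranges were 4.51 to 6.67 in Inter (median 6.10), 4.61 to 6.39 in Kid (median 5.42) and 3.99 to 6.60 in Omen (median 5.02). IMF was therefore the low depot, with 9 of its values below every SC value and the others overlapping the lower part of SC. In LD, C1QA ran from 0.73 to 3.06 (median 1.94, 36 arrays). C1QA fell by 1.80 from SC to IMF (SE 0.33, 3.49-fold, adjusted p = 4.6e-05), and C1QB fell by 1.83 (SE 0.31, 3.55-fold, adjusted p = 1.71e-05).

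C1QB followed the same order of tissues by mean, with SC and Omen nearly equal. It ran from 2.85 to 5.47 in SC (median 3.42), from 0.90 to 3.16 in IMF (median 2.02) and from 3.05 to 5.18 in Inter (median 4.56). Kid held 3.25 to 4.86 (median 3.91), Omen 2.67 to 5.47 (median 3.62) and LD -0.65 to 1.62 (median 0.53). All 12 Kid arrays were above all 12 IMF arrays, a difference of 1.99 (SE 0.24, adjusted p = 3.48e-07). In Inter, Kid and Omen, the only call against SC for either gene was C1QB in Inter, 0.71 above SC (SE 0.29, adjusted p = 0.0482). That call was lost with slide as a random block (adjusted p = 0.179), in the t-test of the methods (adjusted p = 0.0604) and with scan day as a block over all 96 arrays, where the difference was 0.23 (adjusted p = 0.596). C1QA in Inter was 0.63 above SC (95% interval 0.01 to 1.26, adjusted p = 0.0868), and 0.82 without the 2 Inter arrays rich in myofibre markers (adjusted p = 0.0277). The C1QA differences of Kid and Omen from SC, 0.20 (95% interval -0.40 to 0.80) and -0.21 (-0.89 to 0.46), were not past the threshold.

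Macrophage markers were low with these 2 genes in IMF and LD, but did not follow them in Inter. There both genes had their highest mean, while the macrophage list had a median of 1.10 against 1.49 in SC. All 8 macrophage markers with a probe were lower in IMF than in SC, and the mean level of the list was 0.76 to 2.36 in SC, -1.89 to 0.15 in IMF and -2.71 to -1.24 in LD. Over the 60 fat arrays the correlation (Pearson's r) with that mean was 0.78 for C1QA and 0.76 for C1QB, and 0.57 and 0.52 after subtracting each depot's mean. Within single depots of 12 arrays it was 0.92 for C1QA and 0.93 for C1QB in IMF, 0.76 for both in SC, and 0.48 and 0.31 in Kid, where the 4 arrays rich in macrophage markers overlapped the other 8 in both genes. With the skeletal myofibre list, C1QA had r = -0.67 and C1QB -0.69 over the 60 fat arrays (-0.33 and -0.30 within depots). These arrays share depots and steers, and r is given as a description. The part of macrophage or muscle content in the C1q differences was not tested.

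**Figure D1:**
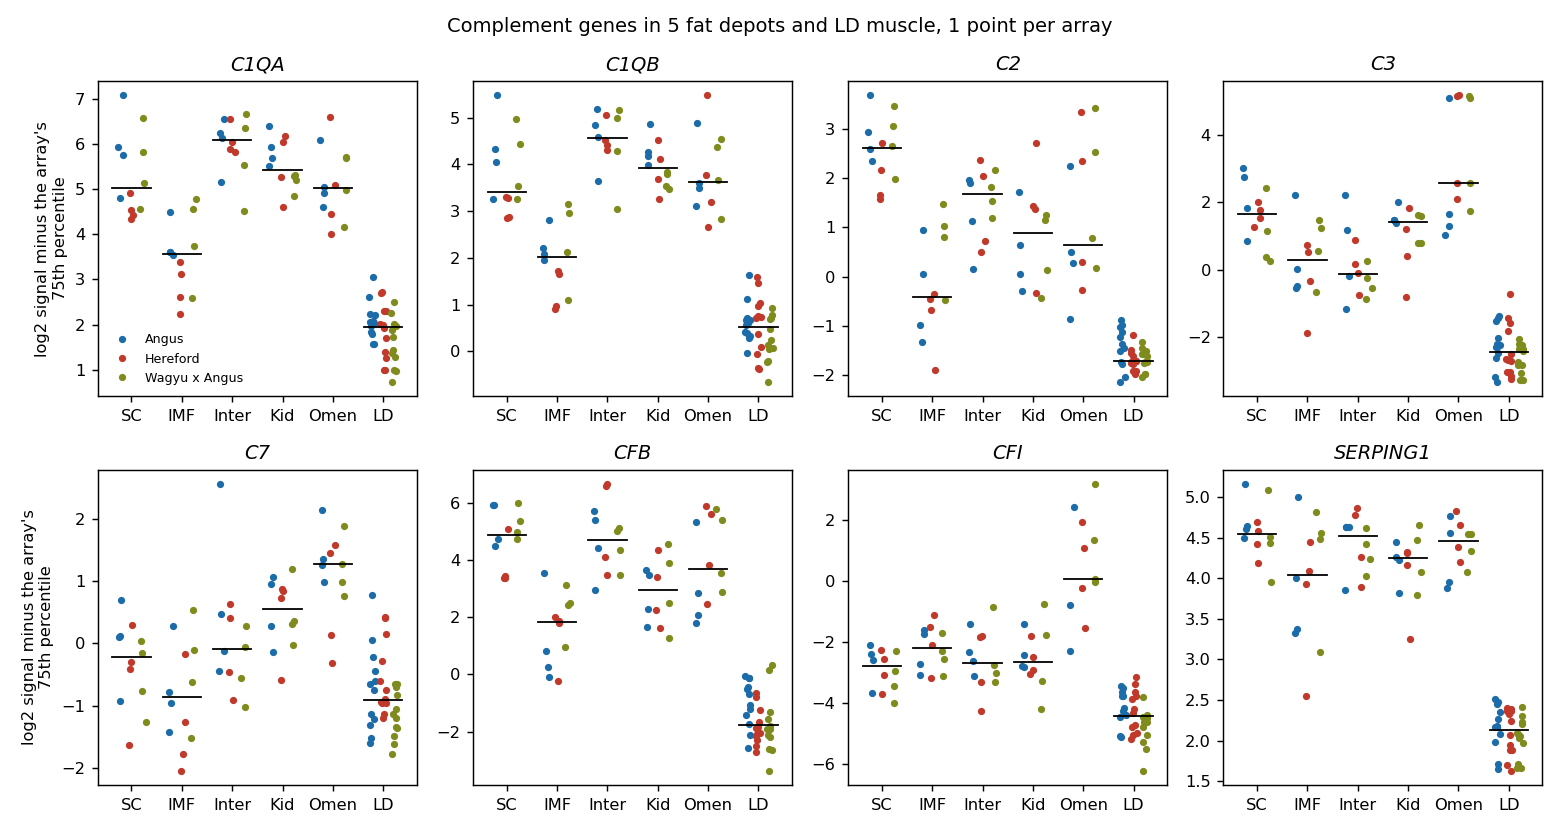
Level of each of the 8 complement genes (log2 signal minus the 75th percentile of the array) by tissue, 1 point per array coloured by breed, with the tissue median as a black line (12 arrays per fat depot, 36 for LD, and 11 Omen arrays for CFI). C1QA and C1QB are low in IMF, C2 is high in SC, C3, CFI and C7 are high in Omen, and LD has the lowest median in every panel, which for C7 (-0.92) is close to that of IMF (-0.87).

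C2 and CFB, the serine proteases of the classical and the alternative C3 convertase, fell furthest in IMF. C2 ran from 1.57 to 3.68 in SC (median 2.62) and from -1.90 to 1.48 in IMF (median -0.40), so that no IMF array reached the lowest SC array. Its difference of -2.72 (SE 0.34, 6.61-fold lower, adjusted p = 1.98e-07) had the same sign in all 3 breeds. CFB ran from 3.36 to 5.99 in SC (median 4.87) and from -0.24 to 3.55 in IMF (median 1.82), a difference of -3.21 (SE 0.43, 9.26-fold lower, adjusted p = 6.77e-07). Among the 12 IMF arrays, the level of C2 had r = 0.85 with the mean of the adipocyte list, 0.79 with that of the macrophage list and -0.52 with that of the myofibre list, and CFB had 0.76, 0.63 and -0.67. Within depots over all 60 fat arrays the adipocyte list had r = -0.035 with C2 and 0.15 with CFB. Of the fibroblast list (all 6 genes with a probe), 5 genes were called lower and 1 higher in IMF than in SC. In Inter 2 were lower and 1 higher, in Kid 4 were lower and in Omen 5. Of all probes, 64.2%, 48.8%, 41.7% and 45.7% passed in these comparisons, in either direction. The mean of the list had r = 0.61 with C2 and 0.63 with CFB over the 60 fat arrays (0.50 and 0.60 within depots). The part of tissue makeup in these differences was not tested.

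C2 was highest in SC, and it was lower than SC in each of the other 4 depots. Inter held 0.16 to 2.37 (median 1.68), Kid -0.42 to 2.71 (median 0.90) and Omen -0.86 to 3.42 (median 0.64). Inter minus SC was -1.11 (SE 0.27, adjusted p = 0.00151). The difference was -1.78 for Kid (SE 0.33, adjusted p = 0.000118), while Omen had -1.34 (SE 0.44, adjusted p = 0.0154). The neighbouring depots Inter and Omen (difference 0.23, 95% interval -0.69 to 1.15) and Omen and Kid (0.45, -0.55 to 1.44) did not differ past the threshold. Without the 5 Omen arrays rich in mesothelium markers, C2 in Omen minus Inter was -1.33 (adjusted p = 0.0118) and in Omen minus Kid -0.66 (adjusted p = 0.397). CFB was not called lower in Inter, where it ran from 2.94 to 6.66 (median 4.70) and differed from SC by -0.02 (95% interval -0.89 to 0.86, adjusted p = 0.978). In Kid it ran from 1.29 to 4.54 (median 2.96), 1.88 below SC (difference -1.88, SE 0.41, adjusted p = 0.000694) and 1.86 below Inter (difference -1.86, SE 0.45, adjusted p = 0.00924). Omen held 1.80 to 5.90 (median 3.69), with a difference from SC of -0.84 that was not past the threshold (adjusted p = 0.181). LD was lowest for both, at -2.14 to -0.88 for C2 and -3.36 to 0.33 for CFB. The LD minus SC difference of CFB, -6.31 (SE 0.30, 79.3-fold lower), was the largest of any of the 8 genes between any of the 6 tissues.

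C3, the component that every route cleaves, had an order of tissues unlike that of CFB. Omen was highest at 1.02 to 5.16 (median 2.56), followed by SC at 0.25 to 3.0 (median 1.64) and Kid at -0.83 to 1.99 (median 1.42). IMF ran from -1.88 to 2.21 (median 0.27), Inter from -1.17 to 2.20 (median -0.14) and LD from -3.33 to -0.73 (median -2.44). All the fat depots overlapped. C3 was 1.36 lower in IMF than in SC (difference -1.36, SE 0.39, adjusted p = 0.00364) and 1.53 lower in Inter (difference -1.53, SE 0.36, adjusted p = 0.00106). Kid differed from SC by -0.45 (95% interval -1.12 to 0.21, adjusted p = 0.266), and IMF from Inter by 0.17 (-0.66 to 1.0). The Omen minus SC difference was 1.61 (SE 0.53, 3.05-fold, adjusted p = 0.0159), and it rested on the 5 Omen arrays with high mesothelium markers. Without them it was 0.25 (SE 0.35, adjusted p = 0.607). Among the 12 IMF arrays C3 had r = 0.87 with the adipocyte list, 0.76 with the macrophage list and -0.76 with the myofibre list, and within depots over all 60 fat arrays it had 0.064, 0.34 and -0.23.

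CFI, which encodes the protease that inactivates C3b and C4b, was the gene in which Omen stood out most. It ran from -2.30 to 3.19 on the 11 Omen arrays measured (median 0.07), the spot of 1 Angus array having been marked as an outlier by the scanner. SC ran from -4.0 to -2.08 (median -2.77), IMF from -3.18 to -1.09 (median -2.20), Inter from -4.25 to -0.85 (median -2.67) and Kid from -4.20 to -0.75 (median -2.64). Omen was the highest depot, and Inter, Kid, IMF and SC overlapped over most of their ranges. In LD the range was -6.21 to -3.14 (median -4.42), with 33 of 36 arrays above background. Omen exceeded SC by 3.39 (SE 0.50, 10.5-fold, adjusted p = 8.71e-06), Kid by 2.94 (SE 0.53, adjusted p = 0.00134) and Inter by 3.02 (SE 0.54, adjusted p = 0.000867). Without the 5 arrays rich in mesothelium markers the excess over SC was 2.12 (SE 0.35, adjusted p = 0.000172) and that over Kid was 1.67, no longer past the threshold (adjusted p = 0.0708). CFI was the only 1 of the 8 genes called higher in IMF than in SC, by 0.69 (SE 0.27, adjusted p = 0.0259). That call was lost in 6 of 15 alternative settings, one of which, with scan day as a block, turned the difference to -0.14 (adjusted p = 0.912). A dimmer CFI probe was 1.15 higher in IMF (adjusted p = 0.00152) and 1.25 higher in Inter (adjusted p = 0.00402), whereas the probe used gave 0.37 in Inter (adjusted p = 0.351). That dimmer probe lay near background, above it on 59.4% of arrays and with a mean level of -5.54 in SC.

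SERPING1, encoding the inhibitor of C1r and C1s, varied least among the fat depots. It ran from 3.95 to 5.16 in SC (median 4.54), from 2.55 to 5.0 in IMF (median 4.04) and from 3.85 to 4.86 in Inter (median 4.52). Kid held 3.25 to 4.66 (median 4.24), Omen 3.88 to 4.82 (median 4.46) and LD 1.63 to 2.51 (median 2.13). The fat depots overlapped throughout, and all 60 fat arrays were above all 36 LD arrays. The gene was 0.59 lower in IMF than in SC (difference -0.59, SE 0.23, adjusted p = 0.0253) and 0.41 lower in Kid (difference -0.41, SE 0.14, adjusted p = 0.0231). Among the 12 IMF arrays it had r = 0.85 with the adipocyte list, 0.69 with the macrophage list and -0.75 with the myofibre list, and within depots over all 60 fat arrays 0.47, 0.22 and -0.30. Inter differed from SC by -0.16 (95% interval -0.44 to 0.12) and Omen by -0.17 (-0.44 to 0.10). On the deposited log2 table, which is not scaled between arrays and in which the median of all probes was 0.63 higher in IMF and 0.83 higher in Kid than in SC, SERPING1 differed from SC by 0.0030 in IMF and 0.49 in Kid. Of its 3 dimmer probes, 1 passed the threshold in both comparisons, with -0.77 in IMF (adjusted p = 0.0119) and -0.54 in Kid (adjusted p = 0.0149). All 3 had the opposite sign to the probe used in Inter minus SC (0.19 to 0.32) and Omen minus SC (0.02 to 0.16), none past the threshold.

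C7, a subunit of the membrane attack complex, was ordered Omen, Kid, Inter, SC, LD and IMF by mean. It ran from -0.31 to 2.14 in Omen (median 1.26), from -0.59 to 1.2 in Kid (median 0.54), from -1.03 to 2.55 in Inter (median -0.10) and from -1.63 to 0.70 in SC (median -0.22). IMF held -2.04 to 0.54 (median -0.87) and LD -1.78 to 0.78 (median -0.92). Every pair of neighbours in this order overlapped, and of these pairs SC and LD alone differed past the threshold (0.46, adjusted p = 0.0362). C7 was 1.47 higher in Omen than in SC (SE 0.27, 2.78-fold, adjusted p = 9.16e-05) and 0.84 higher in Kid (SE 0.24, adjusted p = 0.00746). The Omen difference did not rest on the arrays rich in mesothelium markers, since without them it was 1.62 (SE 0.25, adjusted p = 8.2e-05). Without the 4 Kid arrays rich in macrophage markers the Kid difference was 0.69 (adjusted p = 0.0573). C7 was the only gene of the 8 not higher in IMF than in LD, with a difference of -0.01 (95% interval -0.45 to 0.43, adjusted p = 0.966). With scan day as a block that difference was 0.56 (adjusted p = 0.0375). C7 had r = 0.87 with the mean of the macrophage list among the 12 IMF arrays, 0.48 among the Kid and 0.43 among the SC arrays.

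**Figure D2:**
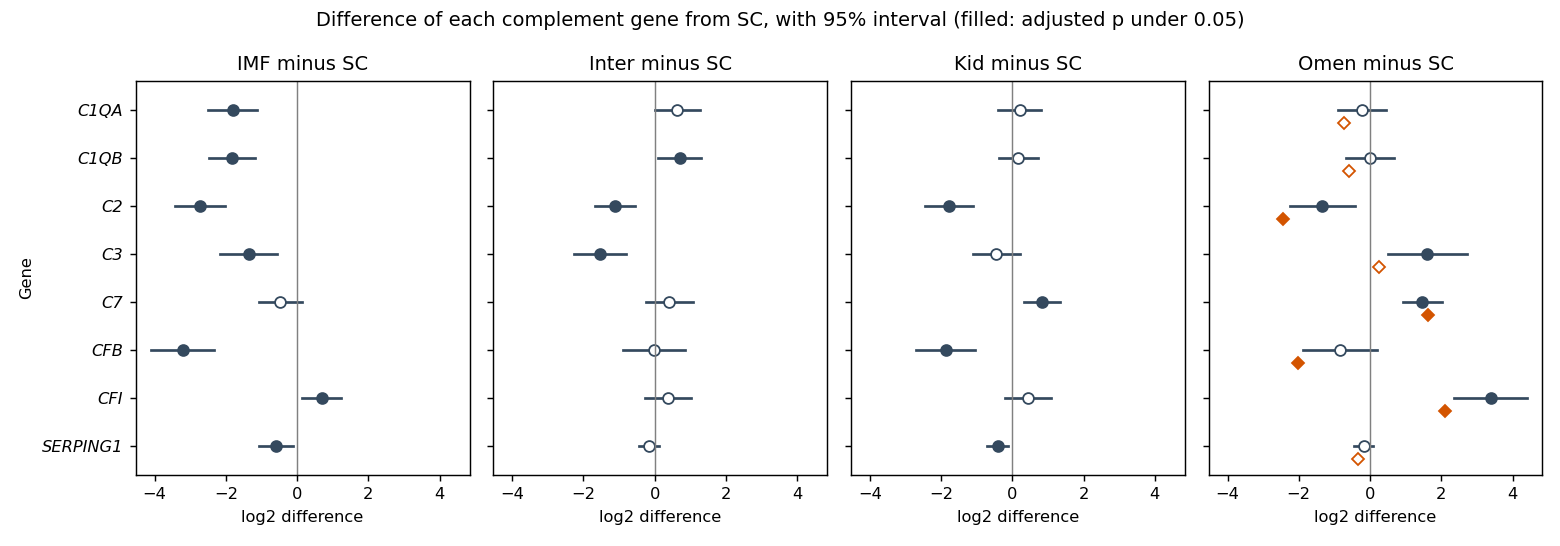
Difference of each depot from SC for the 8 genes on the log2 scale, 1 panel per depot (12 arrays against 12). Circles are the estimates with bars for the 95% interval, filled where the adjusted p is under 0.05, and orange diamonds in the Omen panel are the estimates without the 5 Omen arrays rich in mesothelium markers. CFB and C2 lie furthest below 0 in IMF, CFI furthest above 0 in Omen, and without those 5 arrays C3 moves from 1.61 to 0.25 and CFB from -0.84 to -2.01.

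Counted together, 7 of the 8 genes passed the threshold between IMF and SC, 6 lower and 1 higher, where 64.2% of all tested probes passed. Their median difference was -1.58, against -0.0029 over all probes. The 1 gene without overlap, lower in IMF (C2), compares with 8.26% of all probes. Between Inter and SC 3 genes passed (48.8% of probes), between Kid and SC 4 (41.7%) and between Omen and SC 4 (45.7%), with member medians of 0.18, -0.13 and -0.09. Against IMF, the genes called higher numbered 5 for Inter, 6 for Kid and 7 for Omen, while 30%, 27.4% and 28.4% of all probes were higher. All Kid arrays were above all IMF arrays for 1 gene (C1QB), as for 3.91% of probes. Among the remaining depots, Kid and Inter differed in 2 genes (C3 higher and CFB lower in Kid, 15.4% of probes), Omen and Inter in 4 (C3, CFI and C7 higher and C1QA lower in Omen, 13.6%) and Omen and Kid in 2 (C3 and CFI higher in Omen, 12.1%). When depot and breed were fitted to all 60 fat arrays, depot was past the threshold for all 8 genes and for 87.2% of probes, with adjusted p from 1.68e-10 for C1QB to 0.0234 for SERPING1. With slide as a random block SERPING1 lost that call (adjusted p = 0.0858).

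Some of these calls depended on few arrays or on the scan day. With scan day as a block the comparisons of IMF and Omen with SC rest on 1 SC array scanned with them. In that fit IMF minus SC was -3.56 for C1QA (SE 0.77, adjusted p = 0.00227), -3.84 for C2 (SE 0.84, adjusted p = 0.00257) and -4.36 for CFB (SE 1.10, adjusted p = 0.00683). None of the 8 genes was called between Omen and SC, where CFI was 2.36 (adjusted p = 0.278), C3 0.24 (adjusted p = 0.95) and C7 0.33 (adjusted p = 0.833). The SERPING1 difference between Kid and SC lost its call with quantile normalization (adjusted p = 0.135) and without the 4 Kid arrays rich in macrophage markers (adjusted p = 0.107). Without these 4 arrays C2 and C3 were also no longer called between Kid and IMF (adjusted p = 0.229 and 0.123). Without the 5 Omen arrays rich in mesothelium markers C2 was no longer called between Omen and IMF (0.28, adjusted p = 0.58), nor were C3 (0.70, adjusted p = 0.28) and CFI between Omen and Kid. Between Omen and Inter, leaving out these 5 arrays raised the count from 4 to 7, since C1QB (-1.29, adjusted p = 0.00537), C2 (-1.33) and CFB (-2.0, adjusted p = 0.0176) were then called lower in Omen. C3 between Kid and Inter lost its call without the 4 Kid arrays (adjusted p = 0.104), where C2 was called instead (-1.02, adjusted p = 0.0414), and without the 2 Inter arrays rich in myofibre markers (adjusted p = 0.0815), where C1QB was called instead (-0.71, adjusted p = 0.0241). C7 between Omen and Inter lost its call without the 2 Inter arrays rich in myofibre markers (adjusted p = 0.0653).

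LD muscle had less of the complement transcripts than fat. All 8 genes were lower in LD than in each of SC, Inter, Kid and Omen, where 40.4%, 39.7%, 39% and 40.4% of all probes were lower. All 36 LD arrays were below every array of the depot for 6 genes against SC, 5 against Inter, 5 against Kid and 7 against Omen, compared with 17.6%, 15.9%, 12.5% and 15.2% of probes. Apart from CFB, the largest differences were those of C3 and CFI between LD and Omen, at -5.63 (SE 0.33, 49.5-fold) and -4.88 (SE 0.33, 29.4-fold). In IMF 7 of 8 genes were higher than in LD, as were 36.1% of all probes. These differences ran from 1.46 for C2 (SE 0.19, adjusted p = 1.73e-09) to 3.10 for CFB (SE 0.33, 8.56-fold, adjusted p = 5.39e-12). SERPING1, at 1.87 (SE 0.14, adjusted p = 1.78e-16), was the 1 gene with all IMF arrays above all LD arrays, as were 6.25% of probes. Marker lists moved with these differences, since 6 of 6 adipocyte genes, 7 of 8 macrophage genes and 5 of 6 fibroblast genes were higher in IMF than in LD (median differences of 5.07, 1.35 and 1.28) and 11 of 11 myofibre genes were lower (median -1.46). Their part in the complement differences was not tested.

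The 5 Omen arrays rich in mesothelium markers also held the highest Omen values of 6 of the 8 genes, all 5 lying above the other 7, as did 1.68% of all tested probes. C3 was at 5.07 to 5.16 on these arrays and at 1.02 to 2.56 on the others. CFB was at 5.32 to 5.90 against 1.80 to 3.83, and C2 at 2.25 to 3.42 against -0.86 to 0.78. The C3 values of the 5 arrays were nearly equal to one another, and its values on the others lay within or near the SC range of 0.25 to 3.0. CFI was at 1.10 to 3.19 on the 5 arrays and at -2.30 to 0.07 on the 6 others measured, where 1 array lay within the SC range of -4.0 to -2.08. C1QA was at 5.08 to 6.60 against 3.99 to 5.06 and C1QB at 3.77 to 5.47 against 2.67 to 3.66, margins that were narrow. C7 and SERPING1 overlapped between the 5 arrays and the others. Neither the macrophage list, at 0.58 to 1.61 against 0.34 to 1.71, nor the adipocyte list, at 4.37 to 4.80 against 4.25 to 5.05, set the 5 arrays apart. Without them CFB was 2.01 lower in Omen than in SC (difference -2.01, SE 0.40, adjusted p = 0.00068) and C2 was 2.44 lower (difference -2.44, SE 0.28, adjusted p = 3.46e-06). The count of genes called between Omen and SC stayed at 4, with CFB in and C3 out. These arrays are not a group of the study, so they are described by ranges and no test was made between them and the others.

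**Figure D3:**
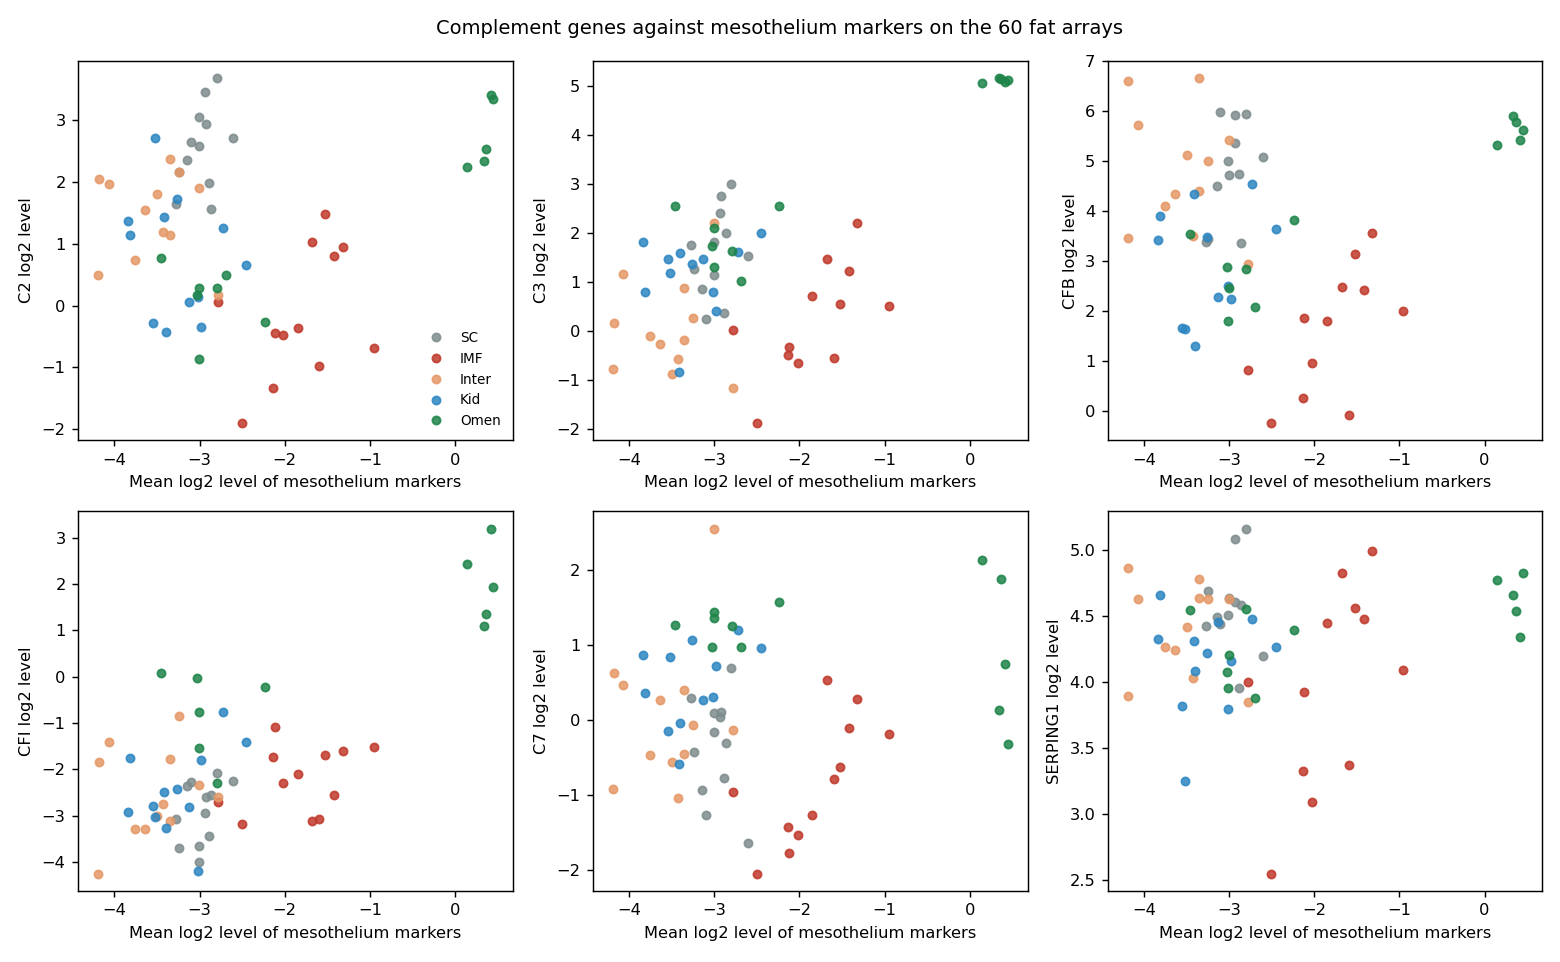
Level of C2, C3, CFB, CFI, C7 and SERPING1 (vertical axes) against the mean level of the mesothelium markers MSLN, UPK3B, KRT18 and KRT8 (horizontal axes), both on the log2 scale, for the 60 fat arrays coloured by depot (59 for CFI). The 5 Omen arrays at 0.14 to 0.45 form a separate cluster, high in C3, CFI and CFB, while C7 and SERPING1 on these arrays overlap the other Omen arrays, C7 reaching beyond them on both sides (-0.31 to 2.14 against 0.98 to 1.58) and SERPING1 lying in their upper part and above (4.34 to 4.82 against 3.88 to 4.55).

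Breed was not past the threshold for any of the 8 genes. In the fat depots 0 of 8 passed by limma (3.2% of all probes passed, and 0 of the 8 had an unadjusted p under 0.05), with adjusted p from 0.318 for C1QA to 0.983 for CFI. The dependence of depot differences on breed was past the threshold for 0 of the 8 genes and 0% of probes, also with 0 at an unadjusted p under 0.05. All 18 called differences of a depot from SC had 1 sign in all 3 breeds, as had 5 of the 14 that were not called. A call made on these same arrays favours a shared sign, so the counts are a description. Sizes varied over the breeds, with C3 in Omen minus SC at 0.15 to 2.59. The IMF minus SC difference of CFB, for example, was -4.14 to -2.46 over the breeds and that of C2 was -3.22 to -2.08, with 4 arrays per breed and depot. The Hereford minus Angus difference of C1QA in fat was -0.55 (95% interval -0.99 to -0.10, adjusted p = 0.362). The breed fit in fat treated all fat arrays as independent, although the depots share steers and breed varies only between steers. Its intervals may thus be too narrow and its p-values too small, and the share of all probes passing for breed may be too high. The labels do not identify the steers, so the fit could not allow for them. In LD on pasture 0 of 8 genes passed for breed (14.7% of probes). C7 came closest, with an unadjusted p of 0.00914 (adjusted p = 0.0566).

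Over the 3 breeds together, no gene was called between LD of steers given the supplement and LD of steers on pasture. Over the 36 LD arrays 0 of 8 genes differed between supplement and pasture by limma (11.2% of probes did, and 0 of the 8 had an unadjusted p under 0.05), and the differences ran from -0.29 for CFB (95% interval -0.89 to 0.31) to 0.19 for C7 (-0.21 to 0.59). In the same comparison 3 of 6 adipocyte genes were lower (median of the list -1.54) and 3 of 4 endothelium genes higher (median 0.45). The methods state that the LD samples of the earlier slaughter covered both diets. They describe the fat samples as coming from pasture-fed animals of a later slaughter. The slaughter of an LD array is not in the labels, so diet and slaughter cannot be told apart, here or within a breed. A test of whether the diet difference depends on breed, added after the data were seen, was past the threshold for 1 gene, C7 (adjusted p = 0.0108), and for 16.2% of probes. In Angus, C7 was at -0.45 to 0.78 on the 4 supplement arrays and at -1.60 to -0.60 on the 8 pasture arrays, without overlap, a difference of 1.14 (SE 0.25, adjusted p = 0.0269). In Hereford the supplement arrays held -1.13 to -0.60 and the pasture arrays -1.2 to 0.43 (difference -0.52, adjusted p = 0.289), and in Wagyu x Angus -1.35 to -1.05 and -1.78 to -0.65 (difference -0.05, adjusted p = 0.927). The 4 supplement arrays of each breed shared 1 slide, so diet and slide cannot be told apart within a breed. C7 also differed between slides on 1 diet. The 4 Hereford pasture arrays of 1 slide held -0.28 to 0.43 and the other 4 held -1.2 to -0.74, and the 2 slides of Angus pasture arrays held -1.31 to -0.60 and -1.60 to -1.13. The dependence on breed was lost with scan day as a block (adjusted p = 0.165) and with slide as a random block (adjusted p = 0.796), and held with each of the 36 arrays left out in turn (adjusted p up to 0.0485).

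The 8 genes did not vary as one set over the 60 fat arrays. C1QA and C1QB had r = 0.99 (0.98 after subtracting each depot's mean). In the bovine assembly ARS-UCD2.0 C1QB, C1QC and C1QA lie beside each other on chromosome 2, and CFB and C2 are neighbours on chromosome 23. C2 and CFB had r = 0.85 (0.79 within depots), CFB and SERPING1 0.74 (0.70) and C3 and CFI 0.69 (0.55). The lowest values were those of C1QA with CFI, 0.07 (0.29), and of C1QB with CFI, 0.14 (0.34), over the 59 arrays with CFI, whereas within depots the lowest was that of CFI with C7, 0.058. The points share depots, steers and slides, so these values describe the arrays and carry no test.

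**Figure D4:**
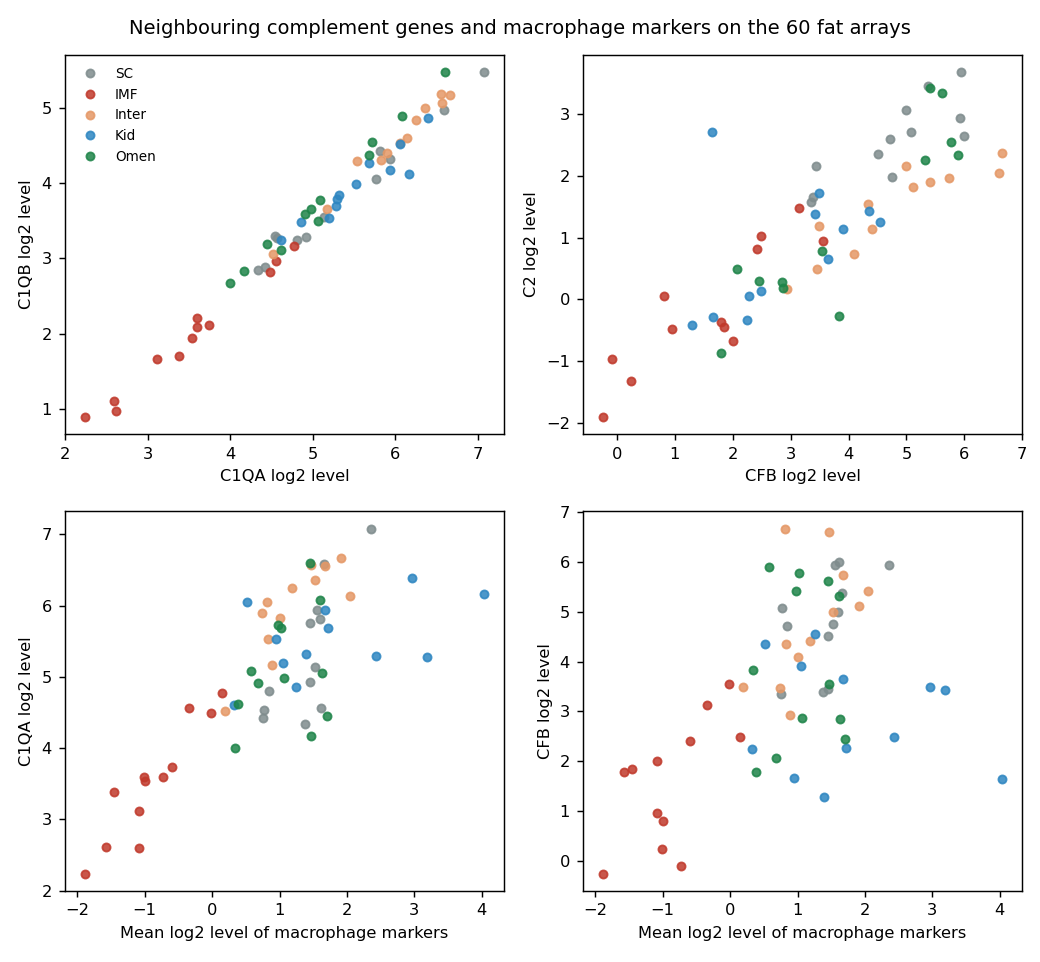
Pairs of measures over the 60 fat arrays, on the log2 scale, 1 point per array coloured by depot. C1QA and C1QB lie along a line (r = 0.99), C2 against CFB is looser (r = 0.85), and the mean of the macrophage markers follows C1QA (r = 0.78) more than CFB (r = 0.49).

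The genes whose levels were most like those of each member were sought among 10421 named genes well above background on at least 50% of the 60 fat arrays. For C1QA they were C1QB (r = 0.99), EPHB2 (0.98) and the anaphylatoxin receptor gene C3AR1 (0.95), and for C1QB, C1QA (0.99), EPHB2 (0.99) and the complement receptor gene CR2 (0.94). EPHB2, an ephrin receptor gene, is the gene next to C1QB in the assembly, and the naming is in doubt. The probe used for C1QB carries the accession of C1QB but is called EPHB2 in the tables of the study, the probe listed as EPHB2 here has that name from those tables alone, and the probe with the accession of EPHB2 had r = 0.02 with C1QA and 0.05 with C1QB. CFB was most like C1RL, C1R and PROS1 (r = 0.88, 0.86 and 0.86), and SERPING1 most like C1S, C1R and C1RL (0.88, 0.86 and 0.86). C1R and C1S encode the proteases that C1 inhibitor blocks, and PROS1 encodes protein S of the coagulation system. C2 was most like LRRC8E (0.90), CFB (0.85) and C1R (0.83). C3 was most like NHERF1, NFKBIZ and ELMO3 (0.82, 0.79 and 0.79), CFI like MSLN, LOC505033 and LDOC1 (0.79, 0.79 and 0.78), and C7 like the chemokine gene CCL19, SKAP2 and RHNO1 (0.77, 0.74 and 0.72). MSLN, mesothelin, is also a gene of the mesothelium list.

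The other complement genes listed, 36 in all and 30 with a probe, passed the threshold about as often as all probes did. Between IMF and SC 19 of the 30 passed, 16 lower and 3 higher (64.2% of all probes passed), between Inter and SC 17 (10 lower, 48.8%), between Kid and SC 12 (8 lower, 41.7%) and between Omen and SC 11 (9 lower, 45.7%). Recognition molecules and proteases fell without exception among those called, with 6 of the 7 measured lower in IMF and 4 to 5 in each of the other depots. The ficolin genes FCN1 and FCN2, whose products recognise sugars on microbes, differed by -3.52 and -2.95 between IMF and SC (SE 0.32 and 0.25). CFD, the adipocyte protease that cleaves factor B, differed by -1.66 (SE 0.15). VSIG4, a macrophage receptor for C3 fragments, differed by -3.56 (SE 0.31), C3AR1 by -1.59 (SE 0.31) and CR2 by -1.53 (SE 0.33), and 5 of 7 receptors fell in IMF with none called higher.

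Fluid phase regulators went both ways. Of the 7 with a probe, 2 were higher and 3 lower in IMF than in SC. Properdin (CFP), which stabilises the alternative convertase, differed by -2.32 in IMF (SE 0.24) and C4BPA, a cofactor for cleavage of C4b, by -1.74 (SE 0.41). Of the late components, C6 was 1.09 higher in Inter than in SC (SE 0.41, adjusted p = 0.0311). C9 (0.98 higher in IMF) and C5 (-0.97 in Inter) lay near background, with C9 above it on 1 SC and 4 IMF arrays and C5 on 4 SC and 4 Inter arrays. Of the membrane regulators that protect host cells, CD59 was 0.67 higher in Inter than in SC (SE 0.13) and CD46 differed by -0.66 in IMF (SE 0.09). Of the 7 acute phase genes with a probe, 6 passed in IMF (5 lower), 3 in Inter (all lower), 2 in Kid (both lower) and 2 in Omen (both higher), beside those same shares of all probes.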

How the data were processed

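The authors deposited the scanner output of every array, with spot intensities (the processed signal) that are background-subtracted and not scaled between arrays. The log2 values per probe that the authors deposited in a series table equal, in all 3285792 values (within 1e-04), log2 of the spot's median signal less its local background median, floored at 1, so that table was not scaled either. The mixed model normalization named in the methods was not used here. The genome build behind the array design is not given in the sources used here.

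Here the processed signal was put on the log2 scale and the 75th percentile of its array subtracted. Outlier spots were dropped, spots of a probe averaged, and the 34227 probes of that table tested. Differences were tested in limma 3.58.1 under R 4.3.3 (lmFit, eBayes, and the packages statmod 1.5.0 and data.table, version 1.17.8) on the arrays of the tissues compared, with Benjamini-Hochberg adjustment over all probes. Intervals are at 95%. The tests were checked on simulated data. No spot was saturated (0), and the number of arrays limits the precision, which measures the spread between these samples.

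The array held 43653 non-control probes. Of the 34227 tested, 19903 were named through RefSeq accessions (RefSeq genes of assembly ARS-UCD2.0) and 4439 in the tables of the study. Both sources named 2897 probes, 2577 of them alike, and the name by accession was used where they differed. The 8 genes had 28 probes, 18 of them tested, and the brightest tested probe of each was used. Other genes were named by list and role, with up to 3 per role past the threshold and largest in absolute difference from SC, of which 1 is not reported here. The members, the lists and the tests were chosen with earlier results of these data known.

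The alternatives were quantile normalization, mean centring, normexp (offset 50, on the median spot signal), the deposited log2 table with and without its 75th percentile removed, all non-control probes, a filter on dim probes (kept if well above background in 50% or more of a group), another probe per gene, the methods' t-test, breed as a covariate, other arrays in the fit, and blocks for replicate number, slide or scan day. The replicate number is the position on the slide and links no samples.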

Additional observations from a re-analysis of the deposited data

Results flagged for a closer look

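In 167 groups of 4 to 10 arrays of 1 tissue, breed and diet, the highest or lowest value of a gene was compared with the rest by Dixon's test at the 95% level, and 10 groups had such a value, where chance gives about 1 in 20. In IMF, 1 Angus array had C1QA at 4.49 (nearest value 3.6) and 1 Hereford array had CFB at -0.24 (nearest 1.79). In SC, 1 Hereford array had CFB at 5.08 (nearest 3.44). In Omen, the 1 Angus array rich in mesothelium markers had C3 at 5.07 (nearest 1.64). In Kid, Hereford arrays had C7 at -0.59 (nearest 0.73) and SERPING1 at 3.25 (nearest 4.16). In Inter, 1 Angus array had SERPING1 at 3.85 (nearest 4.63). In LD on pasture, Angus arrays had C1QA at 3.06 (nearest 2.24) and C1QB at 1.62 (nearest 0.71), and in LD on supplement 1 Hereford array had SERPING1 at 1.88 (nearest 2.32). The supplement minus pasture difference of C7 in LD differed between breeds (adjusted p = 0.0108 by limma), a test added after the data were seen. Diet cannot be told apart there from slide within a breed, or from slaughter.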

How the results depend on the processing

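Of 164 counts of called genes under another setting, 156 stayed within 1.5 times the reported count and 8 did not. On the log2 table as deposited 6 genes were called between Inter and SC, all higher, instead of 3. Without the 4 Kid arrays rich in macrophage markers 2 genes were called between Kid and SC (C2 and CFB) instead of 4. With scan day as a block 0 were called between Omen and SC instead of 4, a fit in which 1 SC array shares the days of the Omen arrays. The count for breed in LD was 1 instead of 0 with normexp (C7), with the deposited table minus its 75th percentile (C7) and with all non-control probes (CFI, another probe, adjusted p = 0.0218). The count for diet by breed in LD was 0 instead of 1 with scan day as a block and with slide as a random block.

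Of 397 values of called genes, 367 kept sign and call, 27 lost the call and 3 changed sign. On the table as deposited SERPING1 was 0.0030 in IMF minus SC and 0.49 in Kid minus SC, and with scan day as a block CFI was -0.14 in IMF minus SC. CFI in IMF minus SC also lost its call with quantile normalization (adjusted p = 0.0607), normexp (0.255), slide as a random block (0.0579), the spread of all 96 arrays (0.0964) and scan day over all 96 arrays (0.106).

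Of the values not called, 277 stayed so with the same sign, 14 came to be called and 40 changed sign. The 14 were C1QA in Inter minus SC under 6 settings, CFI, C7, C1QA and C1QB in Inter or Kid minus SC under 6 more, 5 of these on the table as deposited, and CFB in Omen minus SC under 2 (-1.80 with scan day over all 96 arrays). The sign changes on the table as deposited were C7 (0.12) in IMF minus SC, CFB (1.0) and SERPING1 (0.84) in Inter minus SC, C3 (0.46) in Kid minus SC, C1QA (0.61), C1QB (0.81), CFB (0.077) and SERPING1 (0.67) in Omen minus SC, C7 (0.74) in IMF minus LD, and C1QB (-0.28), CFI (-0.013), C7 (-0.12) and SERPING1 (-0.18) for supplement minus pasture. Those with scan day as a block were C7 (0.56) in IMF minus LD and C1QA (0.24) and CFB (0.12) for supplement, and over all 96 arrays CFI (-0.10) and C7 (-0.15) in Inter minus SC, C1QA (-0.069) and C1QB (-0.10) in Kid minus SC and C7 (0.27) in IMF minus LD. Quantile normalization gave CFB (0.18) and SERPING1 (0.052) in Inter minus SC and C1QA (0.012), C1QB (0.20) and SERPING1 (0.056) in Omen minus SC. Normexp gave CFB (0.071) and CFI (-0.082) in Inter minus SC, CFI (-0.012) in Kid minus SC, C1QB (0.037) in Omen minus SC and C2 (0.0045) for supplement. The deposited table minus its 75th percentile gave CFB (0.018) in Inter minus SC, C1QB (0.029) in Omen minus SC and C2 (0.0065) for supplement. CFB in Inter minus SC was 0.10 with mean centring, 0.012 with slide as a random block and 0.15 without the Inter arrays rich in myofibre markers, and C7 in IMF minus LD was 0.052 on pasture LD alone. With the replicate block CFB was 0.092 in Inter minus SC and C1QB 0.11 in Omen minus SC, and the counts were 7, 4, 4 and 4 for IMF, Inter, Kid and Omen minus SC and 7 for IMF minus LD. The cause of these shifts was not tested.

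Over the 15 pairs of tissues 83 of 120 differences were called, and 71 to 87 under other settings. Scan day as a block could not be run for Inter and SC, which share no day, nor over all pairs in fits of the 2 tissues alone. Leaving out each array in turn kept the counts of 0 for depot by breed and 1 for diet by breed in LD. These and the fits without arrays rich in a marker list were added after seeing the data.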
